A study of Mus musculus with 6 samples.

Results

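Among the many genes that p53 switches on after DNA damage, 10 were grouped for roles in DNA repair, nucleotide supply, RNA decay, cell death, AKT signalling and growth control. Genes best known for cell cycle arrest and genes of the BCL2 pathway were left out. The 10 are Ddb2, Xpc, Rrm2b, Zmat3, Aen, Ddias, Phlda3, Trp53inp1, Sesn1 and Ddit4. They were chosen by name as known p53 targets, and each name matched 1 of the 49315 genes of the deposited count table. The RNA came from GV oocytes, which are arrested before meiosis resumes and keep their nuclear envelope, the germinal vesicle. The OcKO group was 3 mice with an oocyte-specific conditional knockout of Rpa1, and the Control group was 3 Control mice, all aged 4 to 5 weeks and primed with the gonadotropin PMSG. Each library pooled about 20 oocytes freed of cumulus cells. No source used here names the Cre driver, the floxed allele or the genotype of the Control mice.

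The tumour suppressor p53 is a transcription factor that DNA damage stabilises, and in oocytes its relative TAp63 is the better known guard of the genome. Its targets include genes that stop the cell cycle and genes that kill the cell. They also include genes that repair lesions, supply deoxynucleotides, act on RNA stability or hold back the growth kinase mTORC1. RPA1, the large subunit of replication protein A, covers exposed DNA single strands when DNA is copied, recombined or repaired, and the series asks what it does for damage repair during oogenesis.

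Promoter sequence is shown for 3 of these genes because their data differed: Aen and Ddias, with every OcKO library higher than every Control library, and Sesn1, whose libraries overlapped. Of the 10 genes, 5 had an entry in the RefSeq promoter table (GRCm38.p6), with 7 windows of 250 bases before to 50 bases after a gene start. Zmat3, Trp53inp1, Rrm2b, Ddb2 and Xpc had none. Capitals mark a match to the p53 consensus decamer, the unit that p53 binds in tandem copies, and each line reads 5′ to 3′ on the strand of the gene.
Aen, chr7:78895808-78896107, plus strand: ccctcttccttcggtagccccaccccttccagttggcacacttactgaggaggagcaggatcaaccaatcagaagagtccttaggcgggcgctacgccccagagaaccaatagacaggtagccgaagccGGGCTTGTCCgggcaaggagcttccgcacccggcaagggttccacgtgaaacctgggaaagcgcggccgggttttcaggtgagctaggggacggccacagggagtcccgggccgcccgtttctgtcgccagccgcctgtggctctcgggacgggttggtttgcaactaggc
Ddias, chr7:92874198-92874497, minus strand: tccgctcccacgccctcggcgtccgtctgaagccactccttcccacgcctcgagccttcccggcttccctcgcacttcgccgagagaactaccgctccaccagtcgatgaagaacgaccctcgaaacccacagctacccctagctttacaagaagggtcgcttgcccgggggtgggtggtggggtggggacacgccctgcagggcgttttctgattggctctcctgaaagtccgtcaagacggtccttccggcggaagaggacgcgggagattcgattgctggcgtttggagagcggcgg
Sesn1, chr10:41887189-41887488, plus strand: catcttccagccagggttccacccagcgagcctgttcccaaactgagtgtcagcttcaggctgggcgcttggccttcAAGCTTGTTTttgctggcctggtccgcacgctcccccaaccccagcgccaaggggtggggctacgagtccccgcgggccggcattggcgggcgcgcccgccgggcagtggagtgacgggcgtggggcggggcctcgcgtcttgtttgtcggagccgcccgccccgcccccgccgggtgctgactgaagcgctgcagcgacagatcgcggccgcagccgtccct
Of the 7 windows, 3 held the decamer: both windows of Aen, which share the same copy, and the Sesn1 window shown. That window is at a start well inside the gene, which runs from 41809935 to 41908424. The other Sesn1 window, 41810324 to 41810623, held 0 decamers. The decamer stood in 8.36% of the 32851 promoter windows in the table. A tandem pair of decamers 0 to 13 bases apart was found in 0 of the 7 windows and in 0.0731% of all windows. Shorter strings were searched too, on both strands: CATG stood in 1 of the 7 windows (Phlda3) and in 61.1% of all windows, and CANTG in 3 of the 7 and in 71.6%. A CATG can lie inside the decamer. These matches describe the letters of the windows and say nothing of binding.

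The libraries held 36280148 to 44575222 counts each, and 18330 to 22393 genes had at least 1 count. Rpa1 itself stood at 7.75, 4.13 and 6.83 CPM (counts scaled to library size, with TMM factors) in the OcKO libraries, against 155, 155 and 140 CPM in the Control libraries. Rpa1 thus fell, by -4.59 on the log2 scale (SE 0.31, adjusted p = 0.0064 by edgeR). The summed level of 10 oocyte markers was 23279 to 28679 CPM in OcKO and 28046 to 45756 CPM in Control. Of 6 ovarian surface epithelium markers, 5 were detected and Upk1b stood at 0. Their sum was 28.1 to 36.6 CPM in OcKO and 13.4 to 21.6 CPM in Control (exact two-sided permutation p = 0.1, the smallest that 3 against 3 libraries allow, and 0.525 adjusted over 7 marker lists). In that sum, Upk3b averaged 21.5 CPM in OcKO and 12.9 CPM in Control, and Krt8 9.80 and 2.98 CPM. The rest were low, Epcam at 1.15 and 0.181 CPM, Krt19 at 0.804 and 0.153 CPM and Krt18 at 0.0468 and 0.0192 CPM. The sum of 12 granulosa and cumulus markers was 99.5 to 112.0 CPM in OcKO and 66.2 to 107 CPM in Control. Of these, Inha averaged 26.4 CPM in OcKO and 12.7 CPM in Control, Nr5a2 31.1 CPM in OcKO and 24.0 CPM in Control, and Cyp19a1 22.0 CPM in OcKO and 28.1 CPM in Control. The cumulus genes Ptgs2 and Has2 averaged 2.65 and 2.14 CPM in OcKO, against 0.0475 and 0 CPM in Control, and Foxl2 averaged 0.0316 CPM in OcKO and 0 CPM in Control. Mitochondrially encoded RNA made up 0.155 to 0.188% of counts in OcKO and 0.0670 to 0.0807% in Control. The part of these differences in the results that follow was not tested. In pooled oocytes, fewer cells with a transcript and less of it per cell cannot be told apart.

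None of the 10 genes passed the edgeR test at an adjusted p under 0.05, and 9 of them could be tested. Across all 16060 genes tested by edgeR, 0.137% were called higher in OcKO and 0.00623% lower. At an unadjusted p under 0.05, edgeR had 3 of the 9 higher (Ddias, Trp53inp1 and Aen) and 0 lower, where 5.93% of all tested genes were higher and 5.21% lower. Groups were apart, with OcKO on top, for 4 of the 10 genes, Ddias, Trp53inp1, Aen and Phlda3, and below for 0. Phlda3 was not tested and had 2 counts in its lowest OcKO library. Among the 9 tested, 3 lay wholly above, and of all tested genes 10.7% lay wholly above and 8.67% wholly below. DESeq2 called 2 of the 9, Ddias and Trp53inp1, both higher, where it called 2.99% of all tested genes higher and 1.71% lower. The mean level was higher in OcKO for 8 of the 10 genes. The fitted log2 fold change was positive for 7 of the 9 tested genes, and for 50.8% of all tested genes. The median log2 fold change of the 9 tested genes was 0.59, against 0.01 for all tested genes. These counts describe a list whose members were named with earlier results of these data in view.

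**Figure D1:**
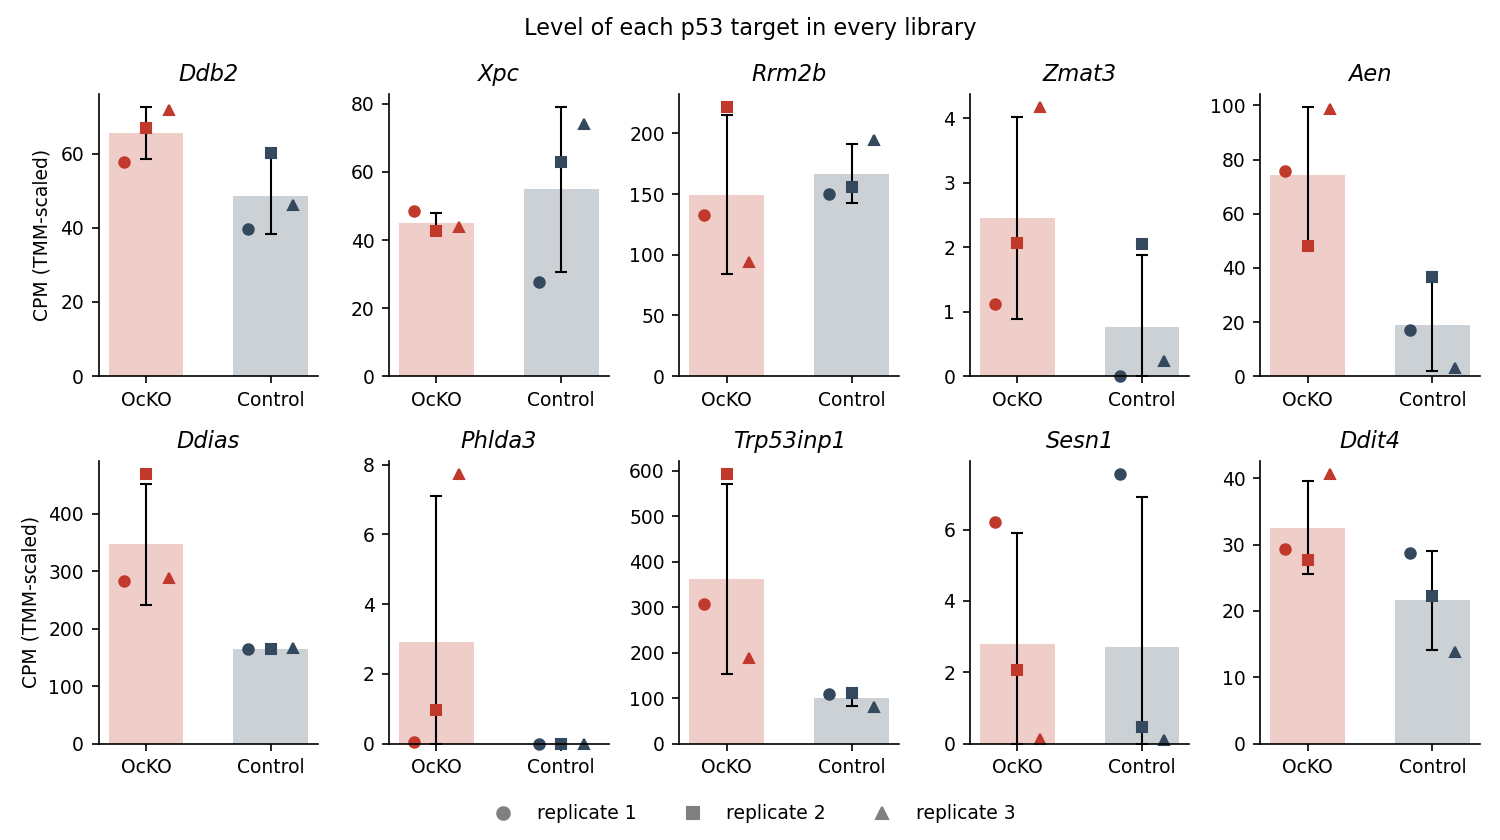
Level of each of the 10 p53 targets in CPM (TMM-scaled, linear axis from 0) in the 3 OcKO and 3 Control libraries. Points are libraries with a symbol for each replicate number, bars are means and error bars are SD, cut at 0. The OcKO points of Ddias, Trp53inp1, Aen and Phlda3 sit above all Control points, and those of the other genes overlap with Control.

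The genes of damage recognition, Ddb2 and Xpc, both had overlapping groups. Ddb2 (ENSMUSG00000002109, chromosome 2, 91211572 to 91236982, minus strand) encodes the subunit of the UV-damaged DNA-binding complex that finds lesions for nucleotide excision repair. It stood at 57.9, 67.0 and 71.7 CPM in the OcKO libraries, against 39.8, 60.2 and 46.1 CPM in the Control libraries. The highest Control library lay between the OcKO libraries, so the groups overlapped. Its log2 fold change was 0.43 (SE 0.24, edgeR adjusted p = 0.600). Its exons share 652 bases with Acp2 on the opposite strand, which had 133 to 273 counts in OcKO and 117 to 458 in Control. The library kit does not mark strand, so reads from the shared bases cannot be told apart.

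Xpc (ENSMUSG00000030094, chromosome 6, 91489305 to 91515888, minus strand) encodes the protein that binds distorted DNA and starts global nucleotide excision repair. It stood at 48.4, 42.6 and 43.7 CPM in the OcKO libraries and at 27.7, 62.9 and 74.1 CPM in the Control libraries. The 3 OcKO libraries were close together, inside the wider range of Control. OcKO over Control gave -0.29 on the log2 scale (SE 0.37, adjusted p = 0.855 by edgeR), and 0.0016 without Control replicate 3. Per kilobase of exon, Ddb2 stood above Xpc in every library, by 2.40, 3.16 and 3.29 times in OcKO and by 2.88, 1.92 and 1.25 times in Control.

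Rrm2b, the gene of nucleotide supply among the 10, had overlapping groups. It (ENSMUSG00000022292, chromosome 15, 37923952 to 37961318, minus strand) encodes p53R2, the small subunit of ribonucleotide reductase used outside S phase and for mitochondrial DNA. It stood at 133, 222 and 94.0 CPM in the OcKO libraries and at 150, 156 and 195 CPM in the Control libraries. OcKO replicate 2 was the highest of the 6 libraries and OcKO replicate 3 the lowest. The difference on the log2 scale was -0.16 (SE 0.32, edgeR adjusted p = 0.918), and 0.0865 without OcKO replicate 3. Its ratio to Rrm2, the S-phase small subunit, taken per kilobase of exon, was 0.529, 0.663 and 0.400 in OcKO and 0.509, 0.598 and 0.620 in Control. The Rrm2b transcript was thus the less abundant of the small subunits in each library on this scale.

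The genes of RNA decay and cell death were Zmat3, Aen and Ddias, of which Aen and Ddias had groups that did not overlap. Zmat3 (ENSMUSG00000027663, chromosome 3, 32334792 to 32366014, minus strand) encodes an RNA-binding zinc finger protein that acts on the stability and splicing of transcripts. It was barely present, at 1.12, 2.06 and 4.18 CPM in the OcKO libraries and at 0, 2.05 and 0.230 CPM in the Control libraries. In counts these were 49, 94 and 170 in OcKO and 0, 78 and 8 in Control, so that Control replicate 2 alone lay inside the OcKO range. Its fitted log2 fold change was 1.68 (SE 1.65, edgeR adjusted p = 0.800) and became 4.41 without Control replicate 2 (adjusted p = 0.487).

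Aen (ENSMUSG00000030609, chromosome 7, 78895854 to 78911209, plus strand) encodes an exonuclease that helps to digest DNA in dying cells. It stood at 75.8, 48.1 and 98.5 CPM in the OcKO libraries, against 17.0, 36.5 and 2.85 CPM in the Control libraries. Each OcKO library lay above each Control library. The Control libraries themselves spanned 12.8 times, where genes of like level spanned a median of 1.57 times. The log2 fold change was 1.98 (SE 0.78, edgeR adjusted p = 0.404). It lay between 1.49, without Control replicate 3, and 2.93, without Control replicate 2. Isg20, an exonuclease gene of the same family that begins 2215 bases beyond the end of Aen, averaged 3.07 CPM in OcKO and 9.02 CPM in Control (adjusted p = 0.492 by edgeR). The promoter decamer of Aen printed above lies at 78895937 to 78895946. Its first base is at 10 from the earlier RefSeq start, inside the transcript, and at -121 from the later one.

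Ddias (ENSMUSG00000030641, chromosome 7, 92857525 to 92874247, minus strand) encodes the DNA damage-induced apoptosis suppressor, known in human cells to protect against death after damage. It stood at 282, 468 and 289 CPM in the OcKO libraries, against 165, 164 and 166 CPM in the Control libraries. The OcKO libraries lay well above a Control group that was almost level. The log2 fold change was 1.07 (SE 0.23), a fold of 2.10, with an edgeR adjusted p of 0.126 and a DESeq2 adjusted p of 0.000538. The highest Control library was 1.01 times the lowest, against a median of 1.30 times for 727 genes of like level (mean CPM within 0.5 on the log2 scale). None of those 727 genes was more even. Prcp, which starts 223 bases away in the opposite direction, averaged 2.64 CPM in OcKO and 2.56 CPM in Control.

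Of the regulators of p53, autophagy and AKT, Trp53inp1 was abundant and Phlda3 sparse, and neither had overlapping groups. Trp53inp1 (ENSMUSG00000028211, chromosome 4, 11156431 to 11174379, plus strand) encodes a stress protein that acts with p53 in the nucleus and in autophagy in the cytoplasm. It stood at 307, 591 and 187 CPM in the OcKO libraries, against 109, 112 and 81.0 CPM in the Control libraries. All OcKO libraries lay above all Control libraries. The log2 fold change was 1.85 (SE 0.41), a fold of 3.60, with an edgeR adjusted p of 0.127 and a DESeq2 adjusted p of 9.34e-05. The OcKO libraries spanned 3.16 times, more than 99.3% of 814 genes of like level. Without OcKO replicate 2, the highest, the log2 fold change was 1.33 (edgeR adjusted p = 0.219).

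Phlda3 (ENSMUSG00000041801, chromosome 1, 135766119 to 135769136, plus strand) encodes a small protein that competes with AKT for lipids of the membrane and so holds AKT back. It had 2, 44 and 314 counts in the OcKO libraries and 0 counts in each Control library, or 0.0456, 0.966 and 7.72 CPM in OcKO and 0 CPM in Control. OcKO replicate 3 held most of the signal, and OcKO replicate 1 did not exceed 3 counts. It did not pass the filter on low counts. The pooled OcKO level was at least 100.6-fold higher than 3 counts over the Control group, and at least 18.7-fold higher without OcKO replicate 3. Without OcKO replicate 1 the bound was about 151-fold, and without Control replicate 2 about 65.6-fold. An exact two-sided permutation test of the 6 CPM values gave p = 0.1, the smallest that 3 against 3 libraries allow. These bounds cover counting error only.

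Of the inhibitors of mTORC1, Sesn1 (ENSMUSG00000038332, chromosome 10, 41809935 to 41908424, plus strand) encodes a sestrin, which acts on mTORC1 through the GATOR complexes. It stood at 6.20, 2.06 and 0.123 CPM in the OcKO libraries and at 7.54, 0.474 and 0.115 CPM in the Control libraries. Each group ran from almost none to several CPM, and the groups overlapped in full. The highest library was 50.5 times the lowest in OcKO and 65.6 times in Control. For 1612 genes of like level the medians were 3.39 and 7.07 times. The spans of Sesn1 exceeded those of 85.9% of these genes in OcKO and 68.1% in Control. The log2 fold change was 0.05 (SE 1.69, edgeR adjusted p = 0.997), and became -1.31 without OcKO replicate 1. Leaving out Control replicate 1, 2 or 3 in turn gave 3.23, -0.43 and -0.49. Cep57l1, whose start lies 64 bases from that of Sesn1 in the opposite direction, averaged 128 CPM in OcKO and 150 CPM in Control.

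Ddit4 (ENSMUSG00000020108, chromosome 10, 59949675 to 59951770, minus strand) encodes REDD1, which acts on mTORC1 through the TSC complex. It stood at 29.4, 27.7 and 40.6 CPM in the OcKO libraries and at 28.7, 22.3 and 13.8 CPM in the Control libraries. Control replicate 1 lay between the OcKO libraries, and the other Control libraries lay below them. The fitted log2 fold change was 0.59 (SE 0.36, edgeR adjusted p = 0.635).

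**Figure D2:**
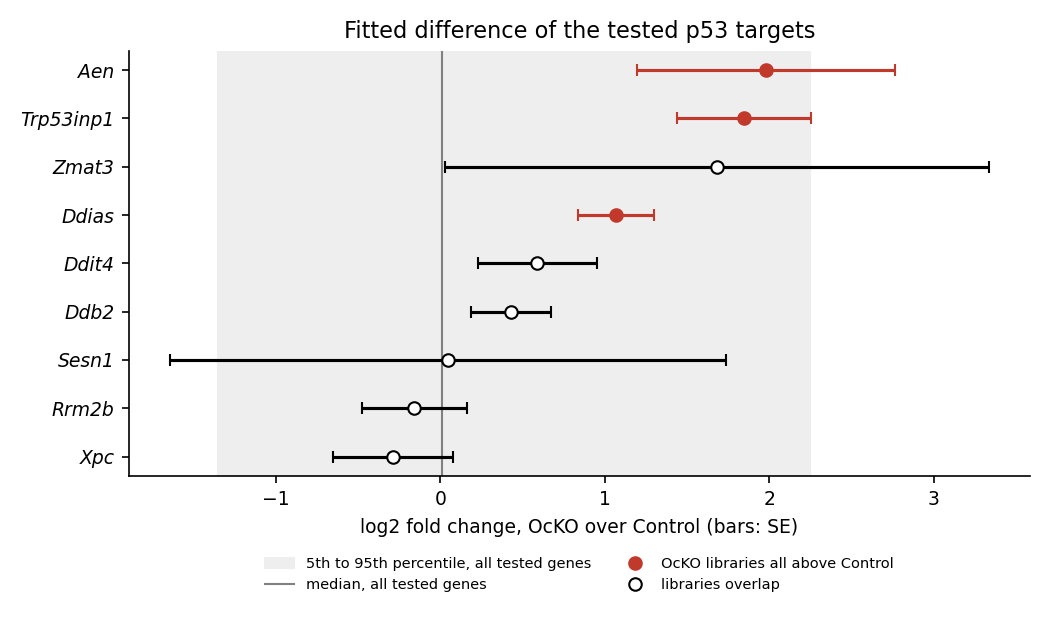
Fitted log2 fold change of OcKO over Control for the 9 tested genes, with bars of 1 SE, on the span from the 5th to the 95th percentile of all 16060 tested genes (grey, -1.35 to 2.25). Red points mark genes with each OcKO library above Control, open points genes whose groups overlap. Each of the 9 values lies inside that span, with Aen highest at 1.98 and Xpc lowest at -0.29.

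Levels can be set against each other once divided by exon length. On this scale, CPM per kilobase, Ddias was the most abundant of the 10 in both groups, at 93.6 ± 28.5 in OcKO and 44.6 ± 0.260 in Control (SD, n = 3). Trp53inp1 came next in OcKO at 55.9 ± 32.1, its range overlapping that of Ddias, and stood after Rrm2b and Ddb2 in Control at 15.5 ± 2.62. Ddb2, Rrm2b, Ddit4 and Aen followed in OcKO, with means from 24.0 down to 12.8 and neighbours that overlapped. Xpc stood at 8.18 ± 0.563 in OcKO, and its Control libraries ran between 5.05 and 13.5. Sesn1 and Zmat3 had low means in both groups, with Sesn1 uneven between libraries, at 0.702 ± 0.780 and 0.215 ± 0.137 in OcKO and at 0.681 ± 1.05 and 0.0666 ± 0.0984 in Control. Among all tested genes ranked on this scale, Ddias reached the 94.6th percentile and Zmat3 the 2.99th.

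The 3 OcKO libraries did not lead in the same genes. OcKO replicate 2 was the highest of all 6 libraries for 3 of the 10 genes, Ddias, Trp53inp1 and Rrm2b. OcKO replicate 3 was the highest for 5, Zmat3, Aen, Phlda3, Ddb2 and Ddit4. A Control library was the highest for Xpc and Sesn1. OcKO replicate 3 was also the lowest OcKO library for Trp53inp1, Rrm2b and Sesn1. Across the 6 libraries the correlation of log2 CPM was above 0.9 for 2 of 36 pairs of tested genes, Ddias with Trp53inp1 (r = 0.961) and Zmat3 with Ddb2 (r = 0.980). It was negative for 11 pairs. These values share the libraries and their scaling, and are descriptions over 6 points.

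**Figure D3:**
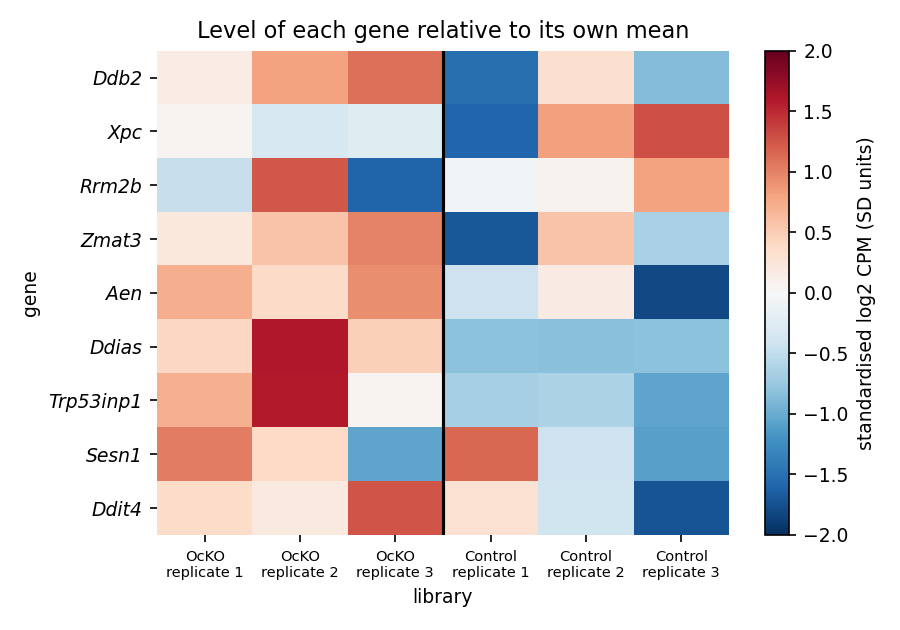
Log2 CPM of the 9 tested genes in each library, standardised to the mean and SD of the gene over the 6 libraries, with OcKO libraries on the left and Control libraries on the right. Ddias and Trp53inp1 peak in OcKO replicate 2 (1.59 SD units each), while Aen, Zmat3, Ddb2 and Ddit4 peak in OcKO replicate 3.

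The genes whose pattern over the 6 libraries was most like the mean standardised level of the 9 were Prdx3, Zkscan1, Msmo1, Zfp963 and Fbln5, out of 9691 compared. Their Pearson's r was 0.982 to 0.991. They were picked as the highest in this same r over 6 libraries, so values near 1 follow from the choice. Prdx3, the mitochondrial peroxiredoxin, stood at 25.6, 29.0 and 24.2 CPM in the OcKO libraries, against 16.4, 19.9 and 16.4 CPM in the Control libraries. Msmo1, an enzyme of sterol synthesis, stood at 27.0, 40.3 and 26.9 CPM in OcKO, against 15.9, 22.3 and 13.5 CPM in Control. Neither they nor the other three passed the test (edgeR adjusted p of 0.342 to 0.535).

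Other p53 targets were read from lists for comparison. Across all tested genes, edgeR had 5.93% higher and 5.21% lower at an unadjusted p under 0.05. DESeq2 called 2.99% higher and 1.71% lower. These shares stand beside the counts of every list below. Of 5 other targets of repair, edgeR called 0 (1 at an unadjusted p under 0.05) and DESeq2 1, Polk. Each of the 5 had a positive log2 fold change in edgeR (median 0.55). Polk, a translesion DNA polymerase, stood at 30.6, 56.2 and 35.6 CPM in the OcKO libraries, against 9.97, 17.0 and 16.2 CPM in the Control libraries, without overlap (adjusted p = 0.164 by edgeR). Ercc5, a nuclease of excision repair, averaged 68.5 ± 21.6 CPM in OcKO and 45.0 ± 7.23 CPM in Control (SD, n = 3).

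Of 11 other targets of metabolism and redox, 9 were tested, with 5 positive and 4 negative log2 fold changes (median 0.48). EdgeR called 0 of them (1 at an unadjusted p under 0.05), while DESeq2, and edgeR on genes of at least 5 CPM, called Sesn2 higher. Sesn2, the sestrin paralog of Sesn1, stood at 85.2, 90.6 and 210 CPM in the OcKO libraries, against 12.7, 1.74 and 6.50 CPM in the Control libraries. Its groups did not overlap (log2 fold change 4.21, SE 0.76, edgeR adjusted p = 0.120). Aldh4a1, a mitochondrial dehydrogenase of proline breakdown, averaged 82.1 ± 35.4 CPM in OcKO and 46.9 ± 9.98 CPM in Control (SD, n = 3).

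In edgeR with the reported filter, calls among the 8 lists fell in that of arrest, death and feedback. Of 21, 19 were tested and 4 rose, Eda2r, Pmaip1, Btg2 and Mdm2, with 13 of the 19 wholly above Control and 1 wholly below (median log2 fold change 1.06). Leaving out any 1 library ended each of the 4 edgeR calls. DESeq2 called 10 of the 19 higher, where it called 2.99% of all tested genes higher. Btg2, an antiproliferative gene, stood at 199, 193 and 281 CPM in OcKO, against 21.1, 43.8 and 21.5 CPM in Control. Mdm2, the ubiquitin ligase that degrades p53, stood at 749, 873 and 523 CPM in OcKO, against 181, 173 and 224 CPM in Control (edgeR adjusted p = 0.0450 for each). In Mdm2, as in Ddias and Trp53inp1, OcKO replicate 2 was the highest library, while Btg2 and Pmaip1 were highest in OcKO replicate 3. Whether the difference between this list and the 10 genes exceeds that between any other genes was not tested.

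Partners of the 10 genes in their own pathways were read in the same way. Of 14 partners in nucleotide excision repair, edgeR called 0 (2 lower at an unadjusted p under 0.05) and DESeq2 2 lower, Uvssa and Ercc6. Of all tested genes, 5.21% were lower at that unadjusted p, and DESeq2 called 1.71% lower. The median log2 fold change of -0.10 turned to 0.06 with library size alone, where that of all tested genes was 0.18. It was 0.11 without OcKO replicate 3. Uvssa, which acts at stalled RNA polymerase, stood at 25.5, 26.6 and 17.8 CPM in OcKO and at 80.5, 45.8 and 38.2 CPM in Control. Ercc6, which encodes CSB in the same branch, stood at 9.21, 22.9 and 16.3 CPM in OcKO and at 63.5, 47.4 and 26.7 CPM in Control. The OcKO libraries of both lay below all Control libraries, with an edgeR adjusted p of 0.238 for Uvssa and 0.260 for Ercc6 and a DESeq2 adjusted p of 0.0340 for Uvssa and 0.0329 for Ercc6.

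Of 15 genes of deoxynucleotide supply, 14 were tested, and edgeR and DESeq2 each called 0 (1 higher and 1 lower at an unadjusted p under 0.05 in edgeR). Their log2 fold changes were positive for 7 and negative for 7, with a median of 0.09. With library size alone 13 were positive and 1 negative. On that scaling 9747 of all 16060 tested genes were positive, with a median of 0.18. Rrm1, the large subunit of ribonucleotide reductase, stood at 62.0, 64.7 and 69.7 CPM in OcKO, against 43.5, 31.5 and 43.7 CPM in Control, without overlap (adjusted p = 0.280 by edgeR). Tyms, thymidylate synthase, stood at 130, 133 and 151 CPM in OcKO and at 173, 182 and 188 CPM in Control, again without overlap (adjusted p = 0.424 by edgeR).

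Of 21 genes of the sestrin, GATOR and mTORC1 pathway, edgeR called 0 (1 at an unadjusted p under 0.05). DESeq2, and edgeR on genes of at least 5 CPM, called Sesn2, which also stands in the lists of metabolism and redox and of paralogs. Values were positive for 7 and negative for 14. Their median of -0.18 was -0.02 with library size alone, where that of all tested genes was 0.18. Besides Sesn2, the smallest p belonged to Wdr59, a GATOR2 subunit, at 12.8 ± 7.96 CPM in OcKO and 5.19 ± 4.54 CPM in Control (SD, n = 3).

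Of 10 genes that act with Trp53inp1, edgeR called 0 (1 higher and 1 lower at an unadjusted p under 0.05), with a median of 0.13 that was -0.0052 without Control replicate 1. DESeq2 called Trp73 higher and Hipk2 lower, and edgeR on genes of at least 5 CPM called Trp73. Trp73, a p53 family member, stood at 285, 211 and 340 CPM in OcKO, against 35.5, 83.4 and 21.5 CPM in Control (edgeR adjusted p = 0.120). Hipk2, a kinase of p53, stood at 48.5, 36.6 and 34.2 CPM in OcKO and at 86.9, 66.1 and 84.0 CPM in Control (edgeR adjusted p = 0.161). Neither gene had overlapping groups.

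Of 12 paralogs, 10 were tested, with 5 positive and 5 negative log2 fold changes in edgeR (median 0.04). EdgeR called 0 (3 higher at an unadjusted p under 0.05, where 5.93% of all tested genes were higher). DESeq2, and edgeR on genes of at least 5 CPM, called 3 higher, Ddit4l, Rexo4 and Sesn2, and edgeR with no filter called Ddit4l. Ddit4l, the paralog of Ddit4, was nearly silent in Control, with 4, 0 and 0 counts, and held 416, 750 and 2178 counts in OcKO. It thus passed the filter through its OcKO counts alone. In CPM it stood at 9.48, 16.5 and 53.5 in OcKO, against 0.110, 0 and 0 in Control (adjusted p = 0.082 by edgeR). Its groups did not overlap, unlike those of Ddit4. Rexo4, an exonuclease of the family of Aen, ran between 48.1 and 76.7 CPM in OcKO, against 15.3, 16.9 and 17.4 CPM in Control (adjusted p = 0.097 by edgeR).

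**Figure D4:**
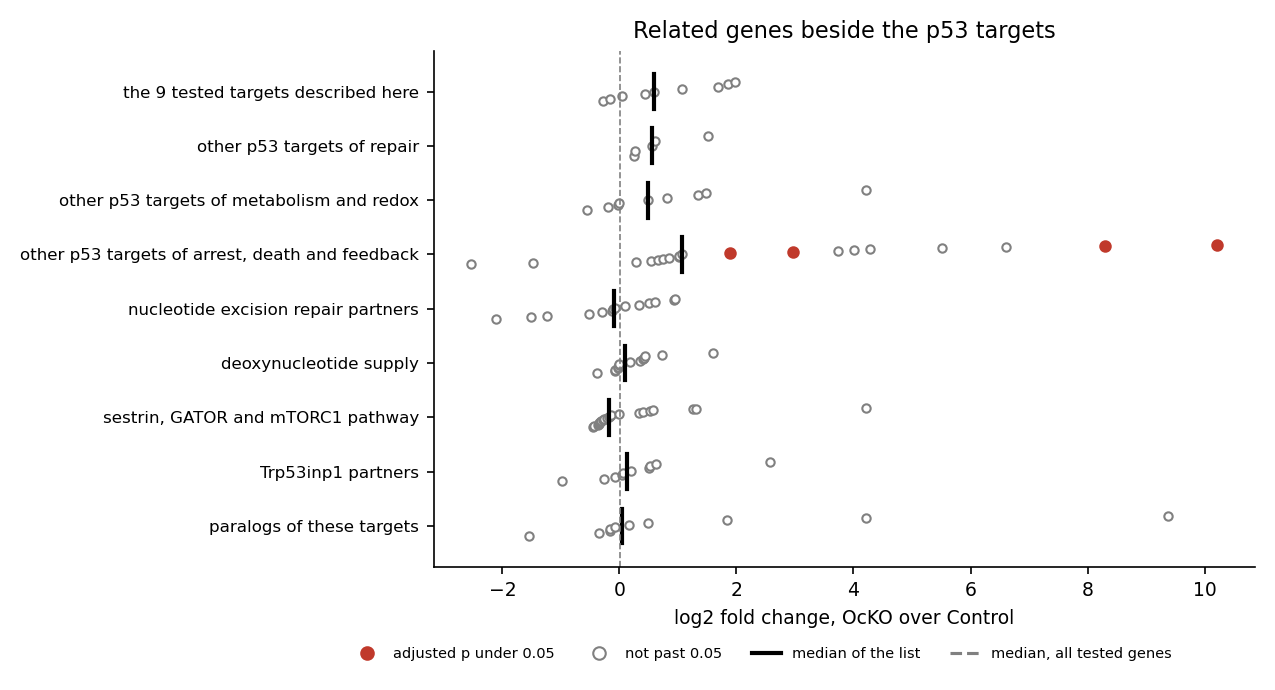
Fitted log2 fold change of OcKO over Control for each tested gene of the 9 targets and of 8 related lists, with the median of each list as a bar and the median of all tested genes as a dashed line at 0.01. Filled points, called at an adjusted p under 0.05, occur in the list of arrest, death and feedback, where 4 of 19 stand. Of all tested genes, 0.137% were called higher.

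The genes next to the 10 on the chromosome were not called. Of the 20 nearest tested protein-coding genes, 1 on each side, the log2 fold changes ran from -1.55 (Isg20) to 1.76 (Pacsin3), with a median of 0.12. The lowest edgeR adjusted p was 0.337, for Madd beside Ddb2 (log2 fold change -0.92). At an unadjusted p under 0.05, edgeR had 1 lower, Madd, and 0 higher, where 5.21% of all tested genes were lower and 5.93% higher. Close divergent neighbours were Lsm3, 40 bases from Xpc, Cep57l1 beside Sesn1 and Prcp beside Ddias. Lsm3, a subunit of an RNA-binding ring, had a log2 fold change of 0.17 (SE 0.21).

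**Figure D5:**
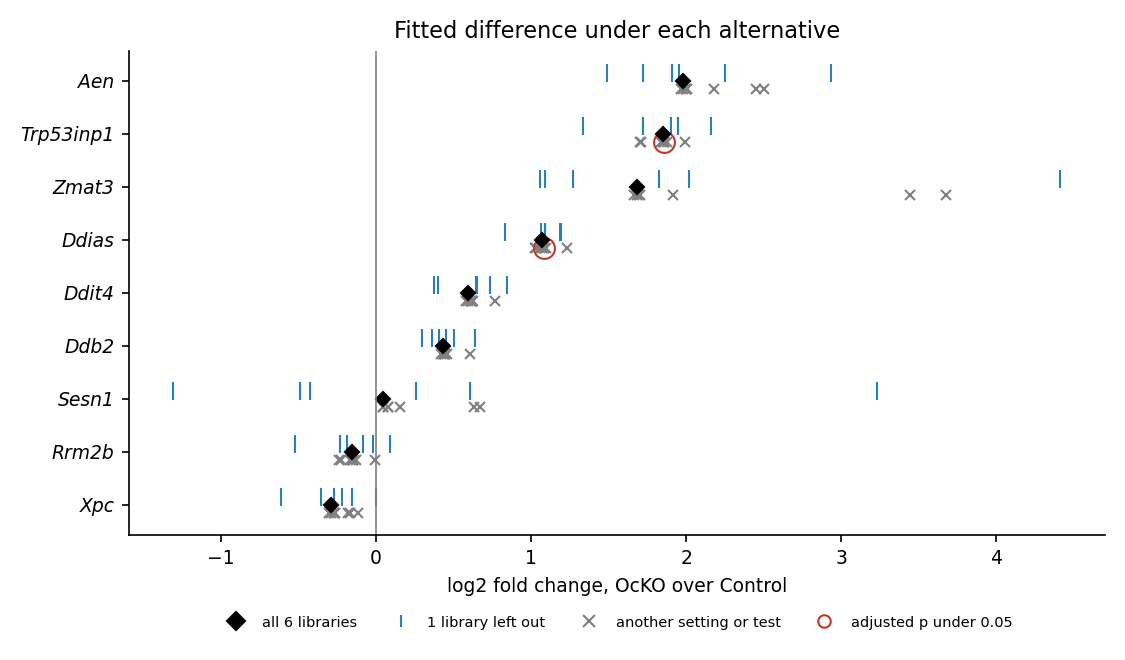
Log2 fold change of OcKO over Control for the 9 tested genes with all 6 libraries (diamonds), with 1 library left out (ticks) and under another scaling, filter, block or test (crosses), with circles where the adjusted p was under 0.05. Circles occur for Ddias and Trp53inp1 under DESeq2. Aen, Trp53inp1, Zmat3, Ddias, Ddit4 and Ddb2 stay above 0 in each fit shown, while Sesn1 runs from -1.31 to 3.23.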

How the data were processed

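Raw read counts were deposited by the authors both per sample and joined in a table, with 0 values that differ. Trimming by Trimmomatic 0.36, alignment by STAR 2.5.2b, the build GRCm38 and gene counting by featureCounts (Subread 1.5.2) are per the submitters' processing notes. Annotation release, strand setting and treatment of shared reads are not given in these sources. Coordinates, exons and gene lengths (a further column, unit other) are per the file headers of the deposited files, and 9 of the 10 genes have the same ends in GENCODE M21.

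Groups came from sample titles. Whether replicates were handled on separate days is not given, so the p-values measure the spread between these 6 mice and libraries. No libraries were duplicates (lowest chi-square per degree of freedom 92.3). Same-numbered libraries did not deviate together (r of -0.0450 to -0.0370), so the numbers were not taken as pairs.

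Counts were tested with edgeR 4.0.16 (R 4.3.3; TMM, filterByExpr, glmQLFit, glmQLFTest) on all genes, with Benjamini-Hochberg adjustment over the 16060 that passed the filter. Each SE was derived as |log2 fold change| divided by √F. Positive values are higher in OcKO. Alternatives were DESeq2 1.42.0, limma 3.58.1 (voom), other scalings and filters, a robust fit, a replicate block and leaving out each library. CPM are on TMM-scaled library sizes. A single count equals 0.0224 to 0.0276 CPM before scaling, depending on the library. Log2 CPM for correlations used a prior count of 2.

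The genes and lists were chosen with earlier results of these data known. Named besides the 10 genes and Rpa1 are, per list, the called genes or else up to 2 with the smallest p, and the 5 genes most like the 10 among genes whose higher group averaged 5 CPM or more. Acp2, Isg20 and the chromosomal neighbours were named after their values were seen.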

Additional observations from a re-analysis of the deposited data

How the results depend on the processing

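With 1 library left out, the log2 fold change of Rpa1 lay between -4.78 and -4.33. Its edgeR adjusted p exceeded 0.05 without OcKO replicate 3 (0.0959), Control replicate 2 (0.0526) or Control replicate 3 (0.0588), as it did with a replicate block (log2 fold change -4.63, adjusted p = 0.159). The number of genes called higher, 22 in the reported fit, was 0 to 4 with 1 library left out, 60 at a minimum of 5 CPM, 12 with a robust fit, 480 by DESeq2, 0 by limma voom and 0 with the block. Genes called lower, 1 in the reported fit, were 0 to 2 with 1 library left out, 8 at 5 CPM, 275 by DESeq2 and 0 with the block. Of the 10 p53 targets, 0 were called in each edgeR and limma voom fit, and 2 by DESeq2. At an unadjusted p under 0.05, edgeR had 3 higher and 0 lower, where 952 of all 16060 genes were higher and 837 lower. It had 2 higher, Ddias and Trp53inp1, without OcKO replicate 3 (941 of all 17068 genes) or with the block (813 of 16060). With library size alone (1343 of 16060) it had 4 higher, with Ddb2 added. It had 4 without Control replicate 3 (1614 of 17476) or without a filter (1767 of 27431), with Phlda3 added. Without Control replicate 2 (1226 of 17436) it had 5, with Ddb2 and Phlda3 added. Phlda3 had 0 counts in each Control library, so it entered through its OcKO counts alone. Without Control replicate 1 (1192 of 17597 genes higher, 622 lower) edgeR had 3 higher and 1 lower, Xpc. There, and among the 3 higher without OcKO replicate 1 (1050 of 17317), Phlda3 stood in place of Aen. Aen also exceeded an unadjusted p of 0.05 without OcKO replicate 3 and with the block. The median log2 fold change of the targets was 0.77 with library size alone, where that of all genes was 0.18 in place of 0.01. It was 0.82 without a filter (Phlda3 included). With 1 library left out it was 0.61 to 1.08, and Phlda3 passed the filter in 4 of 6 fits. With 1 library left out, Rrm2b ran from -0.52 to 0.0865, Xpc from -0.61 to 0.0016 and Sesn1 from -1.31 to 3.23. Signs turned for Rrm2b without OcKO replicate 3, for Xpc without Control replicate 3 and for Sesn1 without OcKO replicate 1 (-1.31), Control replicate 2 (-0.43) or Control replicate 3 (-0.49). The cause was not tested. The other values were log2 fold changes of genes and counts of calls in lists. Of them, 389 kept direction and call or a like count, and many such counts were 0 in the reported fit. A further 22, all of them counts, moved, and 2 fold changes became called (Ddias and Trp53inp1 by DESeq2). Zmat3, Sesn1 and Phlda3 rest on few counts, and 3 libraries a group limit every gene.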
